A study of Mus musculus with 10 samples.

Results

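The genes described here encode the organic anion transporting polypeptides (Slco), the organic cation and anion transporters (Slc22) and the ATP-binding cassette transporters (Abc) in mouse liver. They were taken by symbol, as all genes named Slco followed by a digit, Slc22a, or Abca to Abcg followed by a digit. This rule found 91 of the 55401 genes in the count files, of which 15 were Slco, 26 Slc22 and 50 Abc genes. Of the 91 genes, 89 are annotated as protein coding, and Slco6b1 and Slc22a13b-ps are pseudogenes. RNA came from the untreated liver of 5 wild-type and 5 Thrb hep-/- animals, the latter labelled Thrb-KO, with 1 library per mouse. The knockouts carry Thrb-loxP/loxP and Afp-Cre on C57Bl6/J, so that the gene of thyroid hormone receptor beta is deleted in cells in which the Afp promoter has driven Cre, and their controls were littermates. Whether the wild-type mice carried the floxed allele or Cre is not given in the sources used here, nor are age, sex and time of collection. Housing was the same for both genotypes, with chow and water freely available.

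Transporters set what a hepatocyte takes from blood and what it gives to bile. Slco and Slc22 proteins in the sinusoidal membrane bring in bile acids, bilirubin, drugs, carnitine and other organic ions, and several Slco proteins also carry thyroid hormones, the ligands of the deleted receptor. Abc proteins use ATP to move bile acids, phospholipid, sterols and conjugates across the canalicular membrane into bile or back across the basolateral membrane into blood, while other Abc proteins serve peroxisomes, mitochondria, lipoproteins or, without a membrane domain, the ribosome.

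Each library held between 26477195 and 28590704 counts, and the 91 genes together took a share of 0.568 to 0.661% in wild-type and of 0.668 to 0.716% in Thrb hep-/- livers. Levels are normalized CPM, that is CPM scaled with TMM factors, where CPM is a count as a share of the library total, given as mean ± SD with n = 5 mice per genotype. Genotypes were compared by the quasi-likelihood test of edgeR over the 12234 genes that reached 1 CPM in 5 or more libraries, with p adjusted after Benjamini and Hochberg, and a gene is called dysregulated at an adjusted p below 0.15. Thrb, the targeted gene, fell from 33.3 ± 0.644 to 26.7 ± 1.93 normalized CPM, a log2 fold change of -0.32, and no mouse of one genotype lay within the range of the other. The counts cover the whole gene, and the deleted part was not examined separately. The hepatocyte markers were present in all mice, with a summed level of 78416 to 118384 normalized CPM in wild-type and 93828 to 107149 in Thrb hep-/- livers. In whole liver, fewer cells of a type and less RNA per cell cannot be told apart.

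Of the 91 transporter genes, 55 passed the filter on low values, namely 6 Slco, 11 Slc22 and 38 Abc genes. Of the 36 others, 9 had no count in any library, 14 had at most 3 counts in each library and 13 had more. Abcc12 had the highest count of these, up to 47, and the thyroid hormone transporter Slco1c1 had up to 12.

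In Thrb hep-/- livers, 9 of the 55 tested transporter genes were dysregulated, where 4.08% of all tested genes were. The sterol exporters Abcg5 and Abcg8 and the organic cation transporter Slc22a3 fell. The bile salt export pump Abcb11, the basolateral conjugate exporter Abcc3, the drug exporter Abcb1b, the lipid transporter family member Abca8a and the Slc22 genes Slc22a28 and Slc22a30 rose. The 6 genes that rose compare with 1.51% of all tested genes, and the 3 that fell with 2.57%. At an adjusted p below 0.05, 3 transporter genes were called, Abcg5, Abcg8 and Slc22a28, against 1.35% of all tested genes, with 0.319% higher and 1.03% lower. Of these Abcg8 was the least stable at 0.05, with an adjusted p of 0.0255 to 0.125 in edgeR with 1 mouse left out, and below 0.05 in 1 of those 10 fits, the one without wild-type mouse 3. In these 3 genes no mouse of one genotype lay within the range of the other, which held for 3.64% of all tested genes, with 1.38% higher, as Slc22a28, and 2.26% lower, as Abcg5 and Abcg8. An unadjusted p below 0.05 was reached by 17 of the 55 genes and by 13.6% of all tested genes. The fitted change was upward in 36 of the 55 genes and downward in 19, with a median log2 fold change of 0.058, beside 0.00054 over all tested genes.

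**Figure D1:**
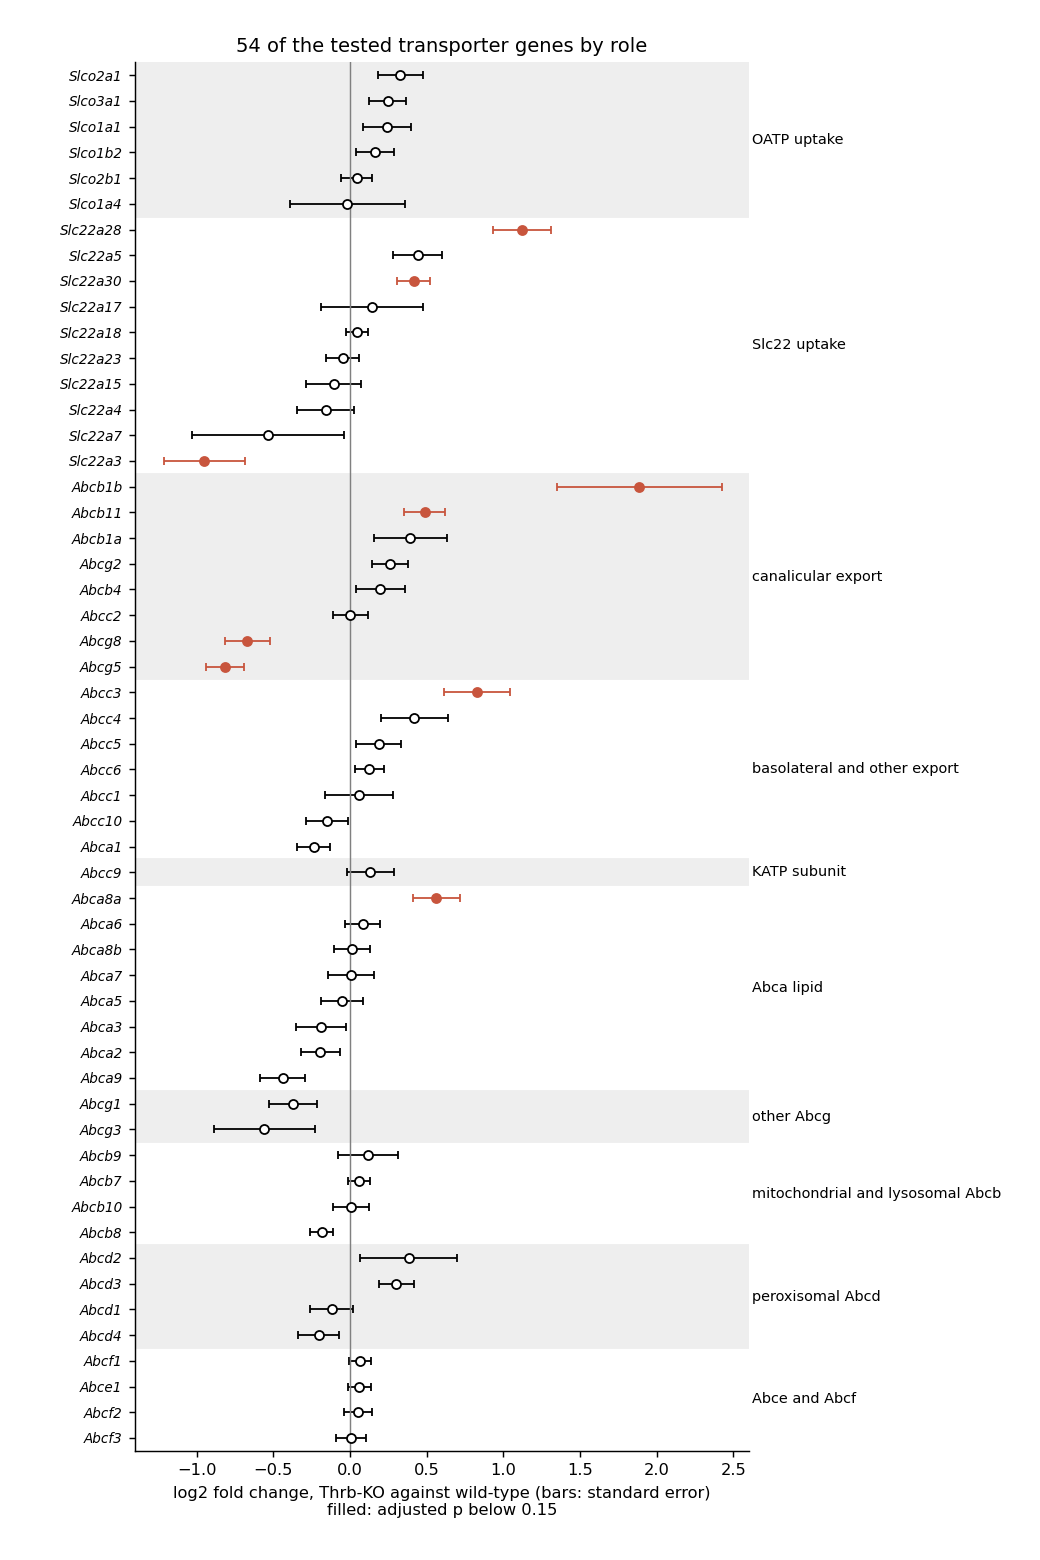
Log2 fold change between Thrb-KO and wild-type livers (x axis) with its standard error for 54 of the 55 tested transporter genes, grouped by role. Filled points are the 9 genes past an adjusted p of 0.15, which lie between -0.95 for Slc22a3 and 1.89 for Abcb1b, while the Abce and Abcf genes lie within 0.07 of 0.

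The livers also differed in acute-phase genes, which hepatocytes express in inflammation. All 22 acute-phase genes of a list had a lower fitted level in Thrb hep-/- livers, and 14 of them were called. Their mean log2 CPM was 9.40, 10.1, 8.61, 8.97 and 9.76 in the wild-type group (mice 1 to 5), against 8.05, 8.48, 7.49, 7.34 and 7.95 in the knockouts (mice 1 to 5). No wild-type mouse was as low as any Thrb hep-/- mouse, so genotype and acute-phase level cannot be told apart in these 10 livers. With the acute-phase level as a covariate, none of the 9 transporter genes remained past the threshold in edgeR (adjusted p = 0.997), 5 of the 55 had an unadjusted p below 0.05, and 10 genes were called in all. Thrb, the targeted gene, also lost its call in that fit (edgeR adjusted p = 0.997), with a log2 fold change of -0.35 against -0.32 without the covariate. The log2 fold change of Abcc3 was 0.78 in that fit, against 0.83 without the covariate, and that of Abcb1b 2.26 against 1.89. Those of Abcb11 (0.13 against 0.49), Slc22a30 (0.13 against 0.42) and Abcg8 (-0.21 against -0.67) were 0.26 to 0.32 times as large. Between these lay Abca8a (0.34 against 0.56), Slc22a28 (0.74 against 1.12), Abcg5 (-0.44 against -0.81) and Slc22a3 (-0.48 against -0.95), at 0.5 to 0.66 times. The SE of the 9 genes ran from 0.173 (Slc22a30) to 1 (Abcb1b) with the covariate, against 0.109 and 0.537 without it. For Abcb11, Abcg8 and Abcg5 the SE with the covariate was 0.222, 0.233 and 0.196. Whether the genes differ from each other in how far they shrank was not tested. Of the cell type marker lists, the 5 Kupffer cell markers were all fitted lower, with a summed level of 77.7 to 269 in wild-type and 89.7 to 192 normalized CPM in Thrb hep-/- livers, and the 5 stellate cell markers all higher, at 80.2 to 97.2 and 90.4 to 135. No gene of these 2 lists was called and none was at 0. Endothelial markers (3 of 5 fitted higher) and cholangiocyte markers (all 3 tested fitted lower) gave no call either. Of the leukocyte markers S100a8 was called, with a log2 fold change of -2.67. The part of these cells in the transporter values was not tested.

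Abcg5 and Abcg8 form the heterodimer that exports cholesterol and plant sterols into bile. Abcg5 (ENSMUSG00000040505, chromosome 17, 84658234 to 84683011 of GRCm38, minus strand) had 128, 147, 105, 111 and 145 normalized CPM in the wild-type group (mice 1 to 5), against 72.7, 75.1, 87.2, 58.8 and 68.6 in the knockouts (mice 1 to 5). Its mean fell from 127 ± 19.3 to 72.5 ± 10.3, a log2 fold change of -0.81 (SE 0.12, edgeR adjusted p = 0.0063). All Thrb hep-/- mice were below all wild-type mice, the highest of the former at 87.2 and the lowest of the latter at 105.

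Abcg8 (ENSMUSG00000024254, chromosome 17, 84676302 to 84700333, plus strand) had 174, 194, 119, 165 and 138 normalized CPM in the wild-type group (mice 1 to 5), against 106, 101.7, 118, 72.7 and 98.7 in the knockouts (mice 1 to 5). The groups came close to each other, at 118.6 and 118.2, but did not overlap. The mean fell from 158 ± 29.8 to 99.4 ± 16.7, a log2 fold change of -0.67 (SE 0.15, edgeR adjusted p = 0.049). The ratio of Abcg5 to Abcg8 within each mouse was 0.673 to 1.05 in wild-type and 0.687 to 0.809 in Thrb hep-/- livers. It differed by -0.15 on the log2 scale (SE 0.12). Both genes kept their call at 0.15 in 15 of 16 alternative fits, the exception being the acute-phase covariate with log2 fold changes of -0.44 and -0.21.

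The genes are head to head. Between their RefSeq start sites lie 109 bases, and 209 of the 300 bases of each promoter window, from 250 before to 50 after the start, are shared by the windows of both. For Abcg8 the window nearest to that of Abcg5 was used (RefSeq, GRCm38.p6, chr17:84682871-84683170, plus strand). It is shown because it holds these start sites of both lowered genes, with the bases between them in capitals. The start site of Abcg8 used here is at 84683121, whereas the gene in the annotation begins at 84676302, outside the window. In the annotation the exons of the genes also overlap by 82 bases, and reads there were left out of both counts.
Abcg8: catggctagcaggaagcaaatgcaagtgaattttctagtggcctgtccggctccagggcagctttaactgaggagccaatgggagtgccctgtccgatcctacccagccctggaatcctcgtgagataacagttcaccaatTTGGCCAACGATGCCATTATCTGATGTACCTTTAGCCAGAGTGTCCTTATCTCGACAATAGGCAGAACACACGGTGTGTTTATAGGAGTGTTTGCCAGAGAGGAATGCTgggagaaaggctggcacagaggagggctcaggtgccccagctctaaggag

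Abcb11 is the bile salt export pump of the canalicular membrane. Abcb11 (ENSMUSG00000027048, chromosome 2, 69238282 to 69342616, minus strand) had 585, 588, 607, 569 and 539 normalized CPM in the wild-type group (mice 1 to 5), against 830, 589, 957, 973 and 698 in the knockouts (mice 1 to 5). The mean rose from 578 ± 25.6 to 809 ± 166, a log2 fold change of 0.49 (SE 0.13, edgeR adjusted p = 0.10). Thrb hep-/- mouse 2 lay within the narrow wild-type range, and the other 4 were above it. The call was lost in 7 of the 10 fits without 1 mouse, those without wild-type 1, 2, 3, 4 or 5 and without Thrb hep-/- 3 or 4, with log2 fold changes between 0.41 and 0.50 and adjusted p between 0.155 and 0.255. Its exons overlap by 155 bases with Gm13613 and Gm13614, which had under 1 normalized CPM.

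Thyroid hormone receptors bind AGGTCA motifs, commonly as a direct repeat with 4 bases between. AGGTCA, searched on both strands, was present in 16.3% of all 32851 promoter windows and in 12 of the 85 windows found for 73 of the transporter genes. Windows were at hand for 8 of the 9 dysregulated genes, and of these Abcb11 alone had the motif. Its window (RefSeq, GRCm38.p6, chr2:69342567-69342866, minus strand) is shown with the match in capitals, read as TGACCT because it lies on the opposite strand, beginning 56 bases before the start. The repeat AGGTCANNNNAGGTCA, on either strand, was in 0.0152% of all windows and in none of the transporter windows.
Abcb11: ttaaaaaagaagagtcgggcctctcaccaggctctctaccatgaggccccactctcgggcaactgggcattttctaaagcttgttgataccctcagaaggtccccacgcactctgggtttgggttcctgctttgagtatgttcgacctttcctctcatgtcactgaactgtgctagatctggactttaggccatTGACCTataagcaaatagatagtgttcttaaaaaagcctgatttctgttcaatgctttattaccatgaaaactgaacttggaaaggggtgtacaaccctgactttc

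Of the other canalicular exporters, Abcb1b was called and is described below, whereas Abcc2, Abcb4, Abcg2 and Abcb1a were not called. Abcc2, which exports bilirubin glucuronide, had 498 ± 59.8 normalized CPM in wild-type and 499 ± 61.3 in Thrb hep-/- livers, a log2 fold change of 0.00255 (SE 0.11). Its sign turned with a mouse left out or without a filter. The phosphatidylcholine floppase Abcb4 was at 218 ± 49.2 and 250 ± 38.7 (log2 fold change 0.20, SE 0.16), and the breast cancer resistance protein gene Abcg2 at 60.5 ± 6.3 and 72.6 ± 12.8 (0.26, SE 0.12, edgeR adjusted p = 0.36). Of the 8 tested exporters into bile, the sterol genes Abcg5 and Abcg8 fell, where 2.57% of all tested genes fell, and Abcb11 and Abcb1b rose, where 1.51% rose. The calls of Abcb11 and Abcb1b were each lost in 7 of the 10 fits without 1 mouse.

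Abcb1a and Abcb1b both encode P-glycoprotein in mice, a drug exporter with low expression in these livers. Abcb1b (ENSMUSG00000028970, chromosome 5, 8798147 to 8866315, plus strand) had 0.984, 1.61, 1.29, 1.37 and 1.23 normalized CPM in the wild-type group (mice 1 to 5), against 11.5, 1.31, 1.72, 5.26 and 4.28 in the knockouts (mice 1 to 5). Thrb hep-/- mice 1, 4 and 5 were above all others, mouse 3 was just above the wild-type range and mouse 2 within it. The mean rose from 1.30 ± 0.226 to 4.81 ± 4.08, a log2 fold change of 1.89 (SE 0.54, edgeR adjusted p = 0.135).

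Without Thrb hep-/- mouse 1 the log2 fold change of Abcb1b was 1.28 (adjusted p = 0.137). The call was lost in 7 fits without 1 mouse, those without any of the 5 wild-type mice or without Thrb hep-/- 4 or 5, at adjusted p between 0.198 and 0.282, with limma-voom, with which the log2 fold change was 1.32, and with no filter on low values (adjusted p = 0.303). Abcb1a was at 2.05 ± 0.383 and 2.69 ± 0.964 (log2 fold change 0.39, SE 0.24, not called). Of all 50-base windows in the longest coding transcript of Abcb1b, 18% occurred exactly in Abcb1a transcripts, and reads that mapped to both places were not counted. The log2 ratio of Abcb1b to Abcb1a differed by 1.14 between the genotypes (SE 0.68), from 0.441 to 0.857 as a ratio in wild-type and from 0.481 to 6.11 in Thrb hep-/- mice.

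**Figure D2:**
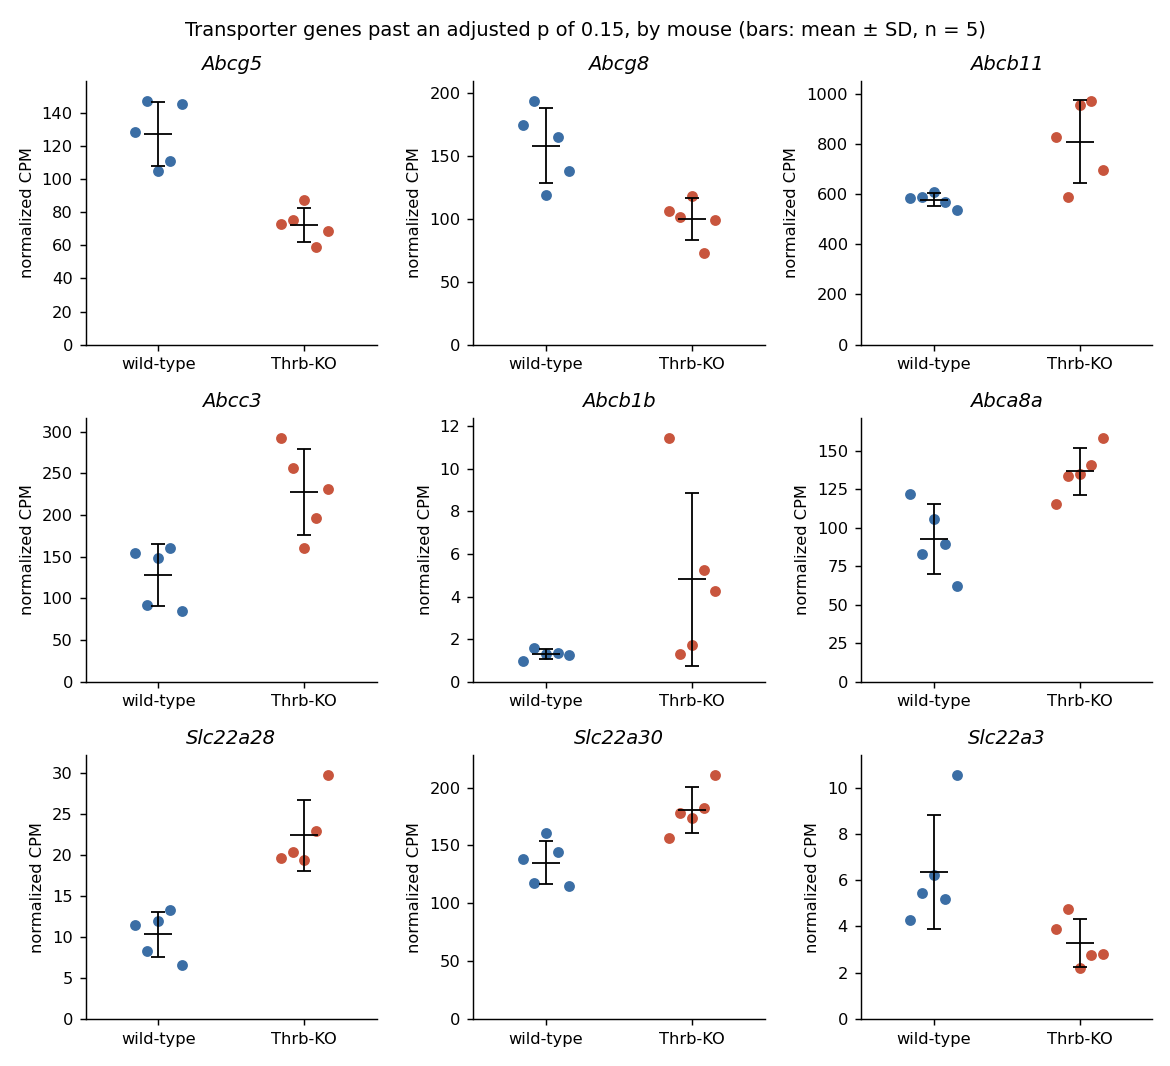
Normalized CPM (y axis, from 0) of the 9 dysregulated transporter genes in each of 5 wild-type and 5 Thrb-KO livers, with mean and SD. Genotypes do not overlap for Abcg5, Abcg8 and Slc22a28, and in Abcb1b the Thrb-KO mean of 4.81 rests on 3 mice between 4.28 and 11.5.

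On the basolateral side, Abcc3 exports glucuronides and bile acid conjugates to blood. Abcc3 (ENSMUSG00000020865, chromosome 11, 94343295 to 94392997, minus strand) had 154, 92.0, 149, 161 and 84.3 normalized CPM in the wild-type group (mice 1 to 5), against 293, 256, 161, 196 and 231 in the knockouts (mice 1 to 5). The groups met at 160.9 in wild-type mouse 4 and 160.7 in Thrb hep-/- mouse 3. The mean rose from 128 ± 36.8 to 227 ± 51.3, a log2 fold change of 0.83 (SE 0.21, edgeR adjusted p = 0.090). Without wild-type 2 or 5 or Thrb hep-/- 2 or 5 it was 0.71 to 0.82 and no longer called (adjusted p between 0.152 and 0.198), and with no filter on low counts it was 0.82 (adjusted p = 0.237).

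The related canalicular exporter Abcc2 carries overlapping substrates. The ratio of Abcc3 to Abcc2 was 0.149 to 0.314 in wild-type mice and 0.327 to 0.528 in Thrb hep-/- mice, without overlap. The difference on the log2 scale was 0.85 (SE 0.24). This and the other gene pairs were chosen after values of these genes had been seen, so their ratios are given as descriptions, without p-values.

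No other basolateral or broadly placed exporter was called. Abcc4, another exporter to blood, had 1.99 ± 0.373 and 2.66 ± 0.774 normalized CPM (log2 fold change 0.42, SE 0.22), Abcc6 232 ± 11.6 and 254 ± 34.0 (0.13, SE 0.10), Abcc5 4.51 ± 0.579 and 5.14 ± 1.01 (0.19, SE 0.15), and Abcc1 1.54 ± 0.512 and 1.60 ± 0.143 (0.06, SE 0.22). Abcc10 was at 14.9 ± 2.26 and 13.4 ± 2.6 (-0.15, SE 0.14). Abca1, which loads cholesterol onto apolipoproteins, was at 207 ± 25.2 and 175 ± 19.7 (-0.24, SE 0.11, edgeR adjusted p = 0.35).

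Among the Slc22 genes, the nearby genes Slc22a28 and Slc22a30 rose and Slc22a3 fell, with the other 8 of 11 tested not called. Slc22a28 (ENSMUSG00000063590, chromosome 19, 8062209 to 8131982, minus strand) had 11.4, 8.25, 11.9, 13.3 and 6.62 normalized CPM in the wild-type group (mice 1 to 5), against 19.6, 20.3, 19.4, 22.9 and 29.7 in the knockouts (mice 1 to 5). All Thrb hep-/- mice were above all wild-type mice. The mean rose from 10.3 ± 2.75 to 22.4 ± 4.34, a log2 fold change of 1.12 (SE 0.19, edgeR adjusted p = 0.015), and this call was also kept in 15 of 16 alternative fits, with 0.74 under the acute-phase covariate.

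Slc22a30 (ENSMUSG00000052562, chromosome 19, 8335371 to 8405111, minus strand) had 138, 118, 161, 144 and 115 normalized CPM in the wild-type group (mice 1 to 5), against 156, 178, 174, 182 and 211 in the knockouts (mice 1 to 5). Only wild-type mouse 3, at 161, reached the range of the Thrb hep-/- mice. The mean rose from 135 ± 18.9 to 180 ± 19.8, a log2 fold change of 0.42 (SE 0.11, edgeR adjusted p = 0.085). The call was lost without wild-type 2 or 5 or without Thrb hep-/- 3, 4 or 5, with log2 fold changes of 0.35 to 0.43 and adjusted p between 0.159 and 0.214.

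These genes share much of their sequence, so their counts are uncertain singly. In the longest coding transcript of Slc22a28, 53.3% of 50-base windows occurred exactly in Slc22a30 transcripts, and in that of Slc22a30 32% occurred in Slc22a28. Summed, Slc22a28 and Slc22a30 had 149, 126, 173, 157 and 122 normalized CPM in the wild-type group (mice 1 to 5), against 176, 198, 193, 205 and 241 in the knockouts (mice 1 to 5), without overlap. The ratio of Slc22a28 to Slc22a30 was 0.057 to 0.092 in wild-type and 0.112 to 0.141 in Thrb hep-/- mice, again without overlap (log2 difference 0.73, SE 0.13).

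The promoter windows of Slc22a28 (RefSeq, GRCm38.p6, chr19:8131933-8132232, minus strand) and Slc22a30 (chr19:8405056-8405355, minus strand) are shown because genes with unequal changes begin in nearly equal sequence. Over 294 aligned bases, 288 were identical, and capitals mark the 6 that differ. Other genes of the same chromosomal group were less alike. The closest was Slc22a29, with 75.1% of aligned bases identical to Slc22a28 and 77.9% to Slc22a30. Slc22a19, Slc22a26, Slc22a27 and Slc22a29 did not pass the filter on low counts.
Slc22a28: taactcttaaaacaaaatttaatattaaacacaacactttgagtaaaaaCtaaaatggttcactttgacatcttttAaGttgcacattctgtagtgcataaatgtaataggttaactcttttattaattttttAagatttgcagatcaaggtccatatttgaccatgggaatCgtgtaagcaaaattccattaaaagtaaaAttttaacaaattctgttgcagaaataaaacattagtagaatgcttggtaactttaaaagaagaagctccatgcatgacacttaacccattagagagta
Slc22a30: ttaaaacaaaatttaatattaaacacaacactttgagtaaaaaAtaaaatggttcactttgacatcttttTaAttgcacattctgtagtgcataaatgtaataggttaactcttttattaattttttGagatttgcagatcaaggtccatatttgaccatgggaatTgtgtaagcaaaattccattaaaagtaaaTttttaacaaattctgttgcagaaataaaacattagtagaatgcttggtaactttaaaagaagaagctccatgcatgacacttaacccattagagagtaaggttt

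Slc22a3 encodes an organic cation transporter. Slc22a3 (ENSMUSG00000023828, chromosome 17, 12418960 to 12507704, minus strand) had 4.28, 5.45, 6.22, 5.20 and 10.6 normalized CPM in the wild-type group (mice 1 to 5), against 3.89, 4.76, 2.20, 2.78 and 2.79 in the knockouts (mice 1 to 5). Wild-type mouse 5 was above all others, and Thrb hep-/- mouse 2 was above wild-type mouse 1. The mean fell from 6.34 ± 2.46 to 3.28 ± 1.03, a log2 fold change of -0.95 (SE 0.27, edgeR adjusted p = 0.112).

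The call of Slc22a3 was lost without wild-type 2, 3 or 5 or without Thrb hep-/- 3, 4 or 5, with log2 fold changes of -1.0 to -0.69 and adjusted p between 0.179 and 0.252. Its exons overlap by 420 bases with Plg, the plasminogen gene on the opposite strand, which was at 2842 ± 327 and 2192 ± 355 normalized CPM (log2 fold change -0.37, edgeR adjusted p = 0.228). Counting did not use the strand, and reads in the overlap were left out of both genes.

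The remaining Slc22 genes gave no call. The carnitine transporter Slc22a5 was at 19.5 ± 4.95 and 26.5 ± 3.02 (0.44, SE 0.16, edgeR adjusted p = 0.246), and it passed the threshold with DESeq2, with limma-voom or without wild-type mouse 4. Slc22a7, an organic anion transporter, spread widely, from 48.8 to 142 in wild-type and from 24.1 to 133 in Thrb hep-/- mice (-0.54, SE 0.50). Slc22a18, Slc22a23, Slc22a15, Slc22a4 and Slc22a17 had log2 fold changes between -0.16 and 0.14.

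None of the 6 tested Slco genes was called. Slco1b2, which takes up bilirubin and drugs, had 810 ± 93.0 normalized CPM in wild-type and 908 ± 146 in Thrb hep-/- livers, a log2 fold change of 0.16 (SE 0.12, edgeR adjusted p = 0.61). Slco1a1 and Slco1a4, organic anion uptake genes next to it on chromosome 6, were at 465 ± 98.5 and 550 ± 94.8 (0.24, SE 0.16) and at 23.7 ± 13.8 and 23.3 ± 5.93 (-0.019, SE 0.37). The fitted change was upward in 5 of the 6 genes, Slco1a4 being the exception, and Slco1a4 turned upward with limma-voom and in 4 fits without 1 mouse.

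Slco2a1, a prostaglandin transporter, was at 106 ± 15.2 and 133 ± 27.9 normalized CPM (log2 fold change 0.33, SE 0.15, edgeR adjusted p = 0.35) and was called without Thrb hep-/- mouse 2, at 0.44. Slco2b1 was at 170 ± 17.4 and 175 ± 20.9 (0.04, SE 0.10), and Slco3a1 at 3.12 ± 0.225 and 3.71 ± 0.328 (0.25, SE 0.12). Wild-type mouse 1 had the highest wild-type level of Slco1b2, Slco1a1 and Slco1a4, and Thrb hep-/- mouse 2 the highest of its genotype for Slco1b2 and Slco1a1 but the lowest for Slco1a4.

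Some mice held like places in several genes, as noticed after values were seen. Wild-type mice 2 and 5 were the lowest of their genotype in Abcc3, Abca8a, Slc22a28 and Slc22a30, 4 of the 6 genes that rose, and in the uncalled Slc22a5. In Abcb1b and Abcb11, which also rose, this was not so for wild-type mouse 2, the highest wild-type mouse in Abcb1b and the second highest in Abcb11. Wild-type mouse 5 was the lowest wild-type mouse in Abcb11 and the second lowest in Abcb1b. On the mean log2 CPM of the acute-phase genes, wild-type mice 2 and 5 were the highest. On the mean standardized level used as covariate, wild-type mouse 2 (1.33) was followed by mouse 1 (0.903) and mouse 5 (0.890). Without wild-type mouse 2, and likewise without wild-type mouse 5, 3 transporter genes were called, Abcg5, Abcg8 and Slc22a28. Calls over all tested genes fell as well, to 1.87% without mouse 2 and 1.97% without mouse 5, against 4.08% with all mice.

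**Figure D3:**
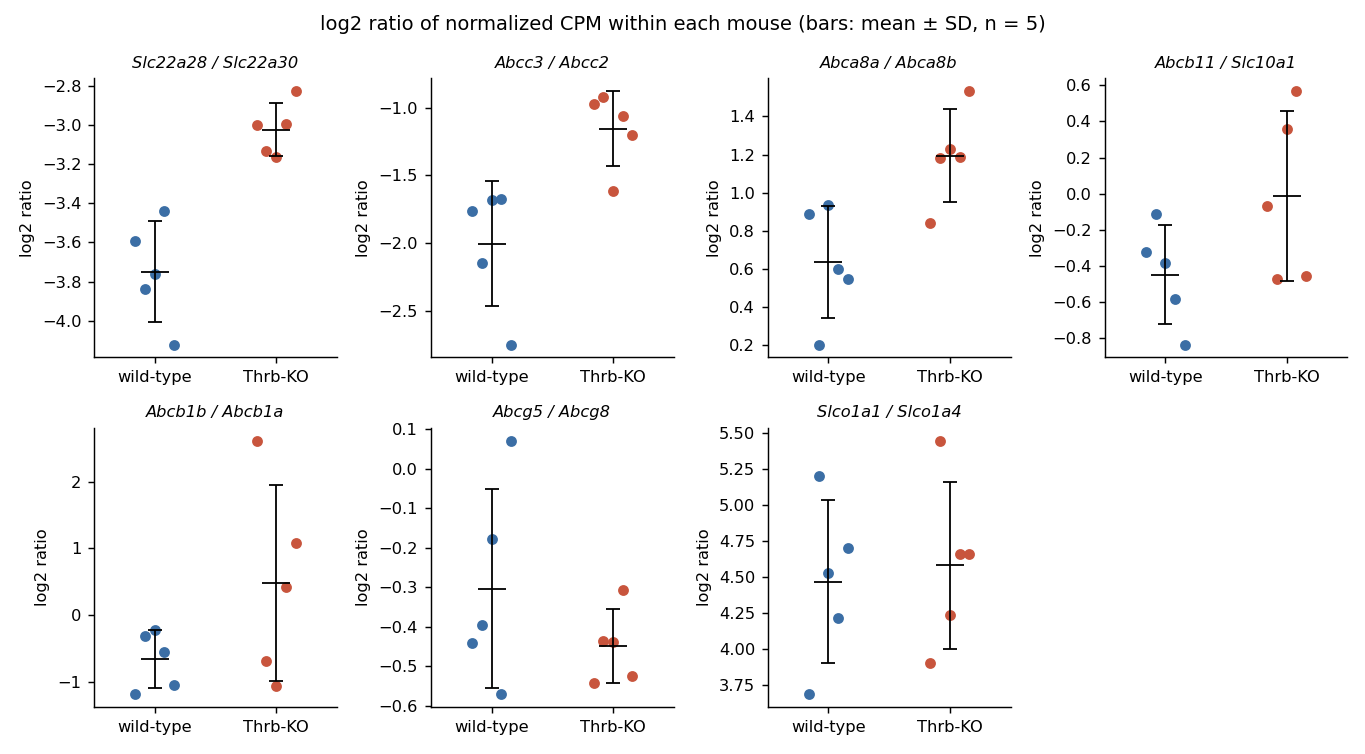
Log2 ratio of normalized CPM (y axis) of 7 of the 8 gene pairs within each of 5 wild-type and 5 Thrb-KO mice, with mean and SD. Slc22a28 to Slc22a30 and Abcc3 to Abcc2 did not overlap between genotypes, while Abcg5 to Abcg8 and Slco1a1 to Slco1a4 differed by -0.15 and 0.11.

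Of the 8 tested genes in the list of Abca lipid transporters, which leaves out Abca1, Abca8a was called. Abca8a (ENSMUSG00000041828, chromosome 11, 110025634 to 110095978, minus strand) had 122, 83.0, 105, 89.7 and 62.2 normalized CPM in the wild-type group (mice 1 to 5), against 116, 133, 135, 141 and 158 in the knockouts (mice 1 to 5). Wild-type mouse 1 was above Thrb hep-/- mouse 1 and the other wild-type mice were below all Thrb hep-/- mice. The mean rose from 92.5 ± 22.7 to 137 ± 15.4, a log2 fold change of 0.56 (SE 0.15, edgeR adjusted p = 0.105), and the call was lost without wild-type 2, 4 or 5 or without Thrb hep-/- 3, 4 or 5 (0.45 to 0.57, adjusted p between 0.162 and 0.252).

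Abca8a stands in a row of related genes on chromosome 11, of which no other was called. Its neighbour Abca8b was at 59.0 ± 11.2 and 59.5 ± 3.8 normalized CPM, a log2 fold change of 0.013 (SE 0.12). The ratio of Abca8a to Abca8b differed by 0.56 on the log2 scale (SE 0.17), and 1.89% of the 50-base windows of Abca8a occurred in Abca8b. Further along the row, Abca9 was at 4.81 ± 0.549 and 3.55 ± 0.656 (-0.44, SE 0.15, edgeR adjusted p = 0.208), Abca6 at 157 and 166, and Abca5 at 5.42 and 5.23. Abca9 was called with DESeq2 and with limma-voom.

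The other Abc genes serve organelles, membranes or the ribosome, and none of the 15 tested was called. Abcd3, a transporter of the peroxisome membrane that takes up branched and dicarboxylic acyl groups, had the highest level per kb of these and was at 476 ± 81.9 and 588 ± 31.8 normalized CPM (log2 fold change 0.30, SE 0.11, edgeR adjusted p = 0.267). It was called with DESeq2, with limma-voom and without wild-type mouse 4, when the log2 fold change was 0.41. Abcd4 had the lowest log2 fold change of the peroxisomal list, -0.20, and Abcd2 the highest, 0.38. The mitochondrial Abcb8 was at 45.4 ± 2.27 and 40.0 ± 3.63 (-0.18, SE 0.08), Abcb9 at 0.12, the sterol exporter Abcg1 at -0.37 and Abcg3 at -0.56, and the potassium channel subunit Abcc9 at 0.13. The ribosome recycling factor Abce1 and the 3 Abcf genes were between 0.0049 and 0.066.

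Levels of different genes were compared per kilobase of exon. Among the genes with values given here, wild-type livers had 164 ± 18.9 CPM per kb of Slco1b2, followed by Abcb11 with 112 ± 4.97, Slco1a1 with 88.2 ± 18.7 and Abcd3 with 72.3 ± 12.4. Slco1b2 and Abcb11 did not overlap over the mice, whereas Abcb11, Slco1a1 and Abcd3 each overlapped with the next in order. Abcg5 and Abcg8, at 47.0 and 42.2 CPM per kb in wild-type livers, were at 26.7 and 26.5 in Thrb hep-/- livers, and Abcb11 was at 157.

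**Figure D4:**
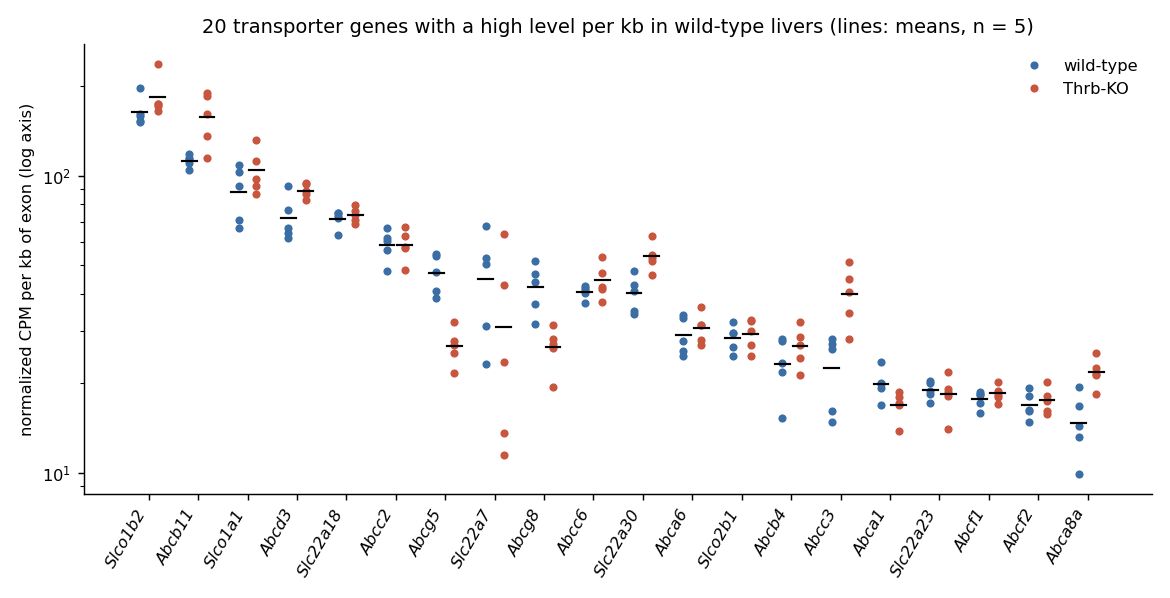
Normalized CPM per kb of exon (y axis, log scale) in each of 5 wild-type and 5 Thrb-KO mice for 20 transporter genes in the order of their wild-type mean, lines being means. The order runs from Slco1b2 at 164 downward. Abcg5 and Abcg8 show the genotypes apart, whereas the other dysregulated genes drawn, Abcb11, Abcc3, Slc22a30 and Abca8a, overlap.

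The partner transporters and the regulators known for these genes gave no call. Of 17 partner genes 14 were tested. Slc10a1, the sodium-dependent bile acid uptake gene, had a log2 fold change of 0.03, and the ratio of Abcb11 to Slc10a1 differed by 0.43 (SE 0.24). Slc10a2, the bile acid transporter of bile duct and ileum, was at 25.9 ± 9.60 and 12.1 ± 5.40 normalized CPM (-1.10, SE 0.34, edgeR adjusted p = 0.18). In the other direction, Slc17a8 was at 13.6 ± 5.3 and 26.1 ± 10.9 (0.94, SE 0.38, edgeR adjusted p = 0.32). Slc10a2 and Slc17a8 were the 2 partner genes at an unadjusted p below 0.05. The thyroid hormone transporters Slc16a10 and Slc7a8 were at -0.0013 and -0.28 on the log2 scale. Of the 14 regulators, all tested, the bile acid receptor gene Nr1h4 was at 0.08, the oxysterol receptor gene Nr1h3 at 0.09, Nr1i2 at 0.19 and Nr1i3 at 0.49. Ppara (0.20) and Ahr (-0.35) were the 2 at an unadjusted p below 0.05, which 13.6% of all tested genes reached.

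**Figure D5:**
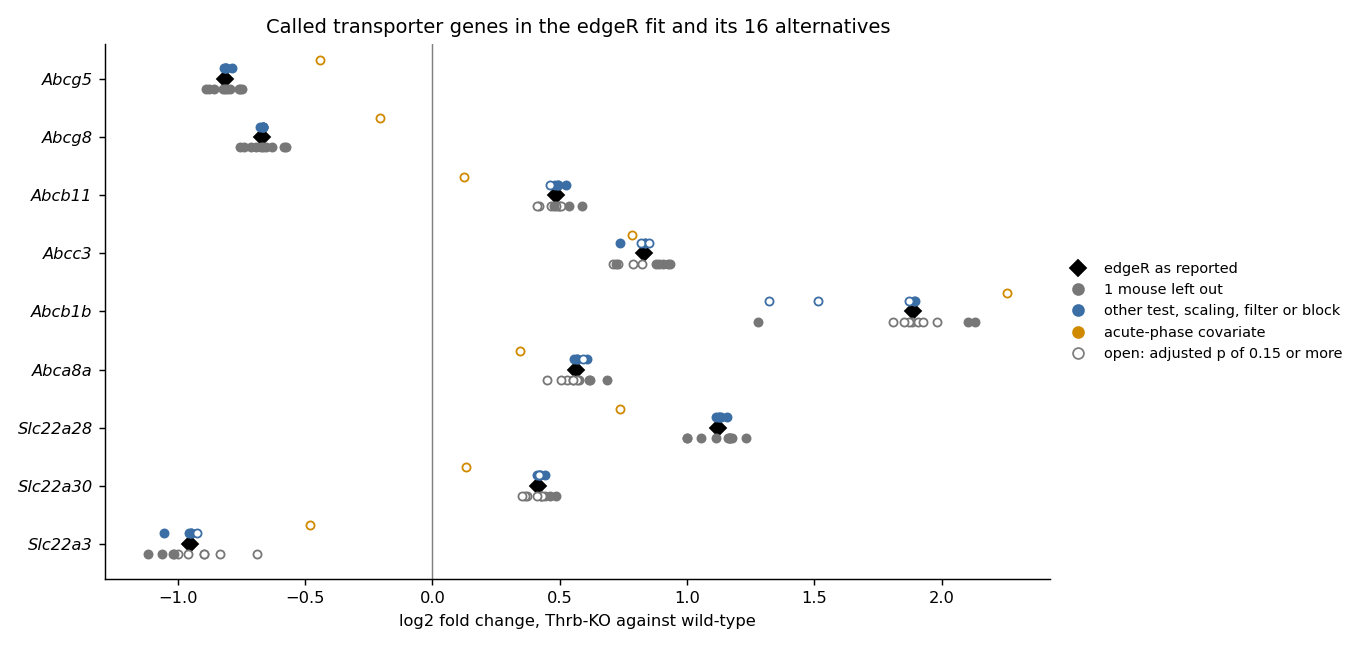
Log2 fold change (x axis) of the 9 dysregulated transporter genes in the reported edgeR fit and in 16 alternative fits, open points being those at an adjusted p of 0.15 or more. Abcg5, Abcg8 and Slc22a28 are open only with the acute-phase covariate, and no point crosses 0.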

How the data were processed

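Liver RNA of 10 mice was sequenced as DNBSEQ stranded mRNA libraries. Per the labels and the study's methods, the authors mapped reads on mm10 (GRCm38) with HISAT2 2.2.1 and counted them on exons of Ensembl release 102 genes with HTSeq 0.9.1, in union mode, without strand, at a minimum alignment quality of 10, and the raw counts are what was deposited. Multi-mapping reads and reads on more than 1 gene were discarded, so genes with close copies are undercounted. A deposited table of the authors' own comparison holds fold changes, mean log2 CPM, F and p-values and was not used.

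Counts were fitted with edgeR 4.0.16 under R 4.3.3 (filter of 1 CPM in 5 libraries or more, TMM, robust quasi-likelihood test, Benjamini-Hochberg adjustment over all 12234 genes). The SE was taken as |log2 fold change| over the square root of F. Symbols, exons and overlaps came from GENCODE vM21, in which 260 of the 55401 identifiers had no symbol. Promoter windows were those of RefSeq on GRCm38.p6, aligned with Biopython 1.88, and 50-base windows of transcripts were matched exactly. At the depth of these libraries, 3 counts correspond to 0.105 to 0.113 CPM. Ratios of gene pairs were put through an exact permutation test of the genotypes. Its p-values are not given, as the pairs were chosen after values were seen. No libraries were duplicates. The fits were tested on simulated counts with known changes.

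The members, lists, gene pairs and alternatives were chosen with earlier results of these data known. Named genes were Thrb, every called member, every member whose genotypes do not overlap, the tested members of the uptake and export lists, the extremes of each further list and the 5 highest levels per kb, and further names were added after values were seen. The values of 2 listed genes and 1 gene pair are not reported here, and they stay in the fits and counts. Alternatives were DESeq2 1.42.0, limma-voom (limma 3.58.1) with quality weights, RLE scaling, no filter, the replicate number as a block, the mean standardized level of 22 acute-phase genes as covariate, and each mouse left out. Mice with the same replicate number did not deviate together (correlations from -0.202 to 0.00907). With 1 library per mouse, the p-values set the difference between the genotypes against the spread between mice.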

Additional observations from a re-analysis of the deposited data

Results flagged for a closer look

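Each genotype's 5 values of each named gene were checked for a mouse far from the other 4 by Dixon's test, and 4 of 88 groups were past its critical value, where chance gives about 4.4. Wild-type mouse 1 was high in Slco1b2, at 972.3 normalized CPM against 747 to 794 in the others. Thrb hep-/- mouse 2 was high in the same gene, with 1167 against 815 to 858. Slco1b2 was not called without the one or the other of these mice. Abcc5 was at 6.947 normalized CPM in Thrb hep-/- mouse 1 against 4.56 to 4.80 in the other mice of its genotype. Slc22a18 was at 106.9 in wild-type mouse 2 against 123 to 127.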

How the results depend on the processing

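The 9 called transporter genes kept their direction in all 16 alternatives. The count of 9 became 12 with DESeq2 and 11 with limma-voom, stayed at 9 with RLE scaling, and was 7 with no filter (82 transporter genes tested). Of all tested genes, 7.23%, 7.19%, 4.11% and 2.3% were called in these fits, in the same order, against 4.08% in the reported fit. At an adjusted p below 0.05 the count of 3 was 9 with DESeq2, 4 with limma-voom and 2 with RLE scaling. Shares over all tested genes at 0.05 were not taken for the alternatives. With each mouse left out the counts were 3 to 9 and 2 to 3, the lowest first count being without wild-type 2 or 5, with 4 without Thrb hep-/- 4 or 5 and 5 without Thrb hep-/- 3. The replicate numbers do not pair the mice. With the replicate block, 4 genes were called (Abcg5, Abcg8, Slc22a28 and Slc22a5) and 1 at 0.05. With the acute-phase covariate there were 0 and 0. The median log2 fold change of 0.058 was 0.0499 to 0.0912 with a mouse left out, the highest without Thrb hep-/- 2, and 0.015 with the covariate. The cause of these shifts was not tested.

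Some uncalled genes changed sign. This was so with limma-voom for Slc22a17 (-0.0036) and Slco1a4 (0.22), with no filter for Abcc2 (-0.0051) and Abcf3 (-0.0018), and with the replicate block for Slco1a4 (0.13). With the acute-phase covariate it was so for Abcb1a (-0.035), Abcb4 (-0.20), Abcb9 (-0.40), Abcc1 (-0.43), Abcc4 (-0.057), Abcf1 (-0.11), Abcf3 (-0.22), Abcg1 (0.034), Abcg2 (-0.067), Slc22a15 (0.61), Slc22a4 (0.21), Slc22a7 (0.72) and Slco2a1 (-0.28). Not all of these were near 0 without the covariate, as Slc22a7 (-0.54), Abcc4 (0.42), Abcb1a (0.39), Abcg1 (-0.37) and Slco2a1 (0.33). With each mouse left out the log2 fold change was -0.086 to 0.24 for Abcc1, -0.060 to 0.066 for Abcc2, -0.049 to 0.070 for Abcf3, -0.19 to 0.013 for Slc22a15, -0.23 to 0.31 for Slc22a17, -0.12 to 0.040 for Slc22a23, -0.21 to 0.34 for Slco1a4 and -0.0024 to 0.10 for Slco2b1. Of all 704 gene and alternative pairs, 603 kept direction and call, but most of the 44 named genes behind them were uncalled. Of the called transporter genes, Abcg5, Abcg8 and Slc22a28 kept both in 15 of 16 alternatives. Abcc3 and Slc22a30 did so in 9, Abca8a and Slc22a3 in 8, Abcb11 in 7 and Abcb1b in 5. At this depth 9 transporter genes had no count in any library and 14 had at most 3 counts in each.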
